A study of Mus musculus with 6 samples.

Results

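The neutrophil granule genes examined here are 10 genes that encode the proteins stored in the 3 granule types of mouse neutrophils: *Mpo*, *Elane*, *Prtn3* and *Ctsg* of the primary granules, *Ltf*, *Camp*, *Ngp* and *Lcn2* of the secondary granules, and *Mmp8* and *Mmp9* of the tertiary granules. They were chosen by name, and are 10 of the 19449 genes counted in single CD45+ cells of the spinal cord. The mice had adoptive-transfer experimental autoimmune encephalomyelitis (EAE), a model in which myelin-reactive CD4+ T cells from young donors are injected into recipients that then develop inflammation of the central nervous system. The study asked how the age of the recipient shapes that inflammation. The 4 libraries came from young adult recipients (8 to 12 weeks old) and middle-aged recipients (40 to 44 weeks old) on day 6 and on day 10 posttransfer. Each library held the cells of 4 pooled spinal cords, so there was 1 library for each age and day. No unaffected mouse was in the single-cell table, and all 4 groups had received transferred T cells.

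Neutrophils make their granules in sequence while they mature in the bone marrow. Primary (azurophil) granules are filled at the promyelocyte stage, secondary (specific) granules later, when cell division is ending, and tertiary (gelatinase) granules last, and the genes of each set are shut off as the next set comes on. The messages present in a cell therefore mark how far it has matured, while the proteins remain in the granules long after their messages are gone. Blood neutrophils that enter a tissue usually carry little message of the early sets.

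The levels were read in clusters 12, 6, 3 and 0 of the 16 clusters the authors deposited, and in the 12 others as spill-over. That name gives the place of a UMI only, and whether the cells of those clusters made the message was not tested. Cluster 12 held 160 cells, cluster 6 held 701, cluster 3 held 1179 and cluster 0 held 9257, of 38057 cells in all. Of the markers fixed for each cell type, cluster 12 was above the rest of the table in 7 of 8 granulocyte precursor markers, 8 of 8 markers of dividing cells and 3 of 10 markers of mature neutrophils. Cluster 6 was above the rest in 9 of 10 neutrophil markers and in 5 of 8 precursor markers, cluster 3 in 10 of 10 neutrophil markers, and cluster 0 in 9 of 10. None of the 10 genes that lead cluster 0 by fold was one of those markers.

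The libraries held 8315 to 10026 cells and 57337626 to 69859331 UMIs (unique molecular identifiers, 1 for each captured transcript), with medians of 4704.5 to 6196 UMIs per cell. The young adult day 10 library stood apart in the early clusters, since it held 81.9% of the cells of cluster 12 and 73.5% of those of cluster 6. Cluster 12 had only 6 young adult and 4 middle-aged cells on day 6, against 131 and 19 on day 10. Of the cell barcodes, 154 were found in more than 1 library, on 308 cells. Levels below are UMIs per 1000000 UMIs of the named cells (CPM), listed in the order young adult day 6, middle-aged day 6, young adult day 10 and middle-aged day 10. With 1 library a group, intervals are exact 95% intervals that cover counting error only and not the spread between mice. Clusters were built from these genes among others, so differences between clusters are described and were not tested. No order of maturation was fitted, so a rise or fall between clusters compares different cells and not a course in time.

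The sequence just upstream of each gene was read as a description of its letters, and no link to the levels was tested. RefSeq gave a promoter window for 9 of the 10 genes (all but *Mmp9*). *Elane* and *Prtn3* lie side by side on chromosome 10 of GRCm38, with *Prtn3* at chr10:79874476-79883174 and *Elane* at chr10:79886247-79888215, both on the plus strand and 3072 bases apart. The annotated span of *Prtn3* begins with a longer transcript, 5191 bases before the RefSeq start (chromosome 10, base 79879667) that its window is counted from. *Camp* (chr9:109847379-109849617, minus strand), *Ngp* (chr9:110419747-110423012, plus strand) and *Ltf* (chr9:111019271-111042767, plus strand) lie within 1195389 bases of each other on chromosome 9, the chromosome of *Mmp8* (chr9:7558456-7568485, plus strand) as well. *Mpo* is at chr11:87793581-87804413 (plus strand), *Ctsg* at chr14:56099881-56102574 (minus strand), *Lcn2* at chr2:32384633-32388252 (minus strand) and *Mmp9* at chr2:164940780-164955850 (plus strand). The stretches printed here are parts of those windows that hold no annotated exon (that of *Prtn3* lies within the span of its longer transcript), 5′ to 3′ on the strand of the gene, with matches to GAGGAA (a core of the sites bound by PU.1) or TTNNGNAA (bound by C/EBP factors), on either strand, in capitals. They are chr10:79886097-79886246 for *Elane*, chr10:79879464-79879613 for *Prtn3*, chr11:87793534-87793580 for *Mpo*, chr9:111019121-111019270 for *Ltf* and chr9:110419597-110419746 for *Ngp*, all on the plus strand of GRCm38.p6. The primary genes are shown for their GAGGAA matches, and *Ltf* and *Ngp* for their TTNNGNAA matches, of which the primary genes and *Camp* had none.
Elane: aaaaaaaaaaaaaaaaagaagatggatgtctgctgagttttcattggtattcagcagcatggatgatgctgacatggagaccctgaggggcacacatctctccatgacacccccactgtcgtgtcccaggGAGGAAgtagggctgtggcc
Prtn3: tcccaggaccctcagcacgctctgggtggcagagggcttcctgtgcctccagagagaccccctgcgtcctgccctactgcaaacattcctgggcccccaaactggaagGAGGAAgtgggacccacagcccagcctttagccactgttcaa
Mpo: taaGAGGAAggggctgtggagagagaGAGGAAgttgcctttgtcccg
Ltf: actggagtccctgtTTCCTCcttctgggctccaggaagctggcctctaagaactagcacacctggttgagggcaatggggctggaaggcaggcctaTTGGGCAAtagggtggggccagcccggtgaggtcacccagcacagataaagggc
Ngp: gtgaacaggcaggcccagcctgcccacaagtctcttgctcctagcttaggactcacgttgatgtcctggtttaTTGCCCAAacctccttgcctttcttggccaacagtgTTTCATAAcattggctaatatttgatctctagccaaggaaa
The GAGGAA match lay 85 to 80 bases before the RefSeq start of *Elane* and 95 to 90 bases before that of *Prtn3*. In the whole windows (250 bases before to 50 after the start), 4 of 4 primary genes and 2 of 4 secondary genes had a GAGGAA match, against 28.3% of all 32851 promoters. None of the 4 primary genes and 3 of 4 secondary genes (*Ltf*, *Ngp* and *Lcn2*) had a TTNNGNAA match, against 40.7% of all promoters, and *Mmp8* had both. A match is a description of the letters and not a bound site, and the lack of a match does not show that no site is there. These motifs did not overlap each other in any of the 9 windows, although a match to AACNG, the core of MYB sites, overlapped a TTNNGNAA match of *Lcn2* and of *Mmp8* and the GAGGAA match of *Ltf*. AACNG is a common match, found in all 9 windows and in 80.3% of all promoters.

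Primary granule messages were found in cluster 12 among the neutrophil clusters, and most of them there were in few cells. *Elane*, which encodes neutrophil elastase, was at 1789, 0, 728 and 537 CPM in cluster 12. In cluster 6 the same gene was at 0, 0, 0.221 and 2.82 CPM, and it did not pass 1.04 CPM in any library in clusters 3 and 0. *Mpo*, the enzyme that makes hypochlorous acid from hydrogen peroxide, was at 917, 0, 106 and 73.5 CPM in cluster 12, and at 1.41 CPM or less in cluster 6. *Ctsg*, the protease cathepsin G, was at 267, 0, 72.3 and 25.7 CPM in cluster 12 and at 0.886 CPM or less in cluster 6. The middle-aged day 6 value of 0 for these 3 genes rests on 4 cells and allows a level of up to 45.1 CPM (3 counts). *Prtn3*, which encodes proteinase 3, was at 2706, 60.2, 578 and 647 CPM in cluster 12, and unlike the other 3 it was listed above 0 in every library of every neutrophil cluster.

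**Figure D1:**
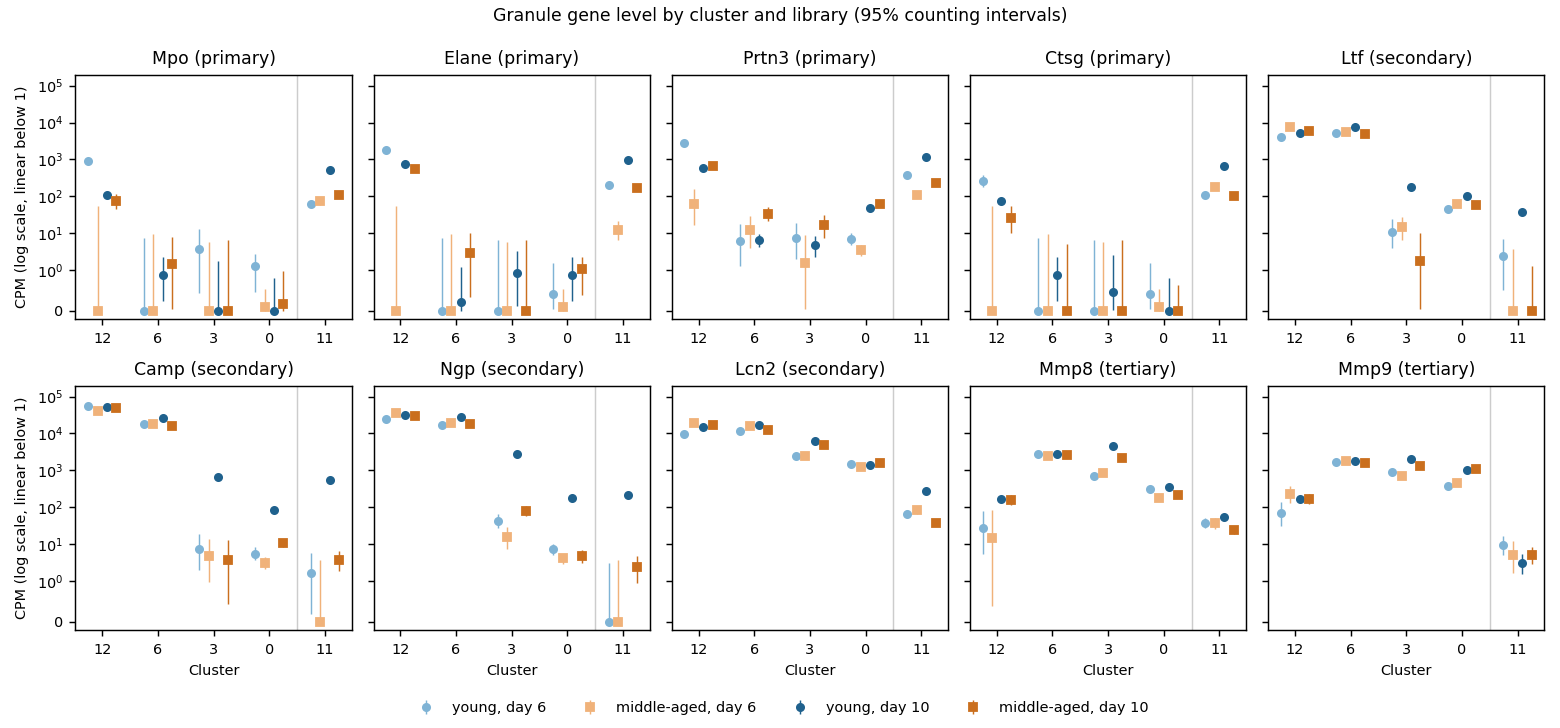
Level of each of the 10 granule genes (CPM, log axis that is linear below 1) in clusters 12, 6, 3, 0 and 11, with 1 point for each library and bars for the exact 95% Poisson interval, which covers counting error only. The primary genes drop after cluster 12 (and are high again in cluster 11), the secondary genes are high in clusters 12 and 6, and Mmp8 and Mmp9 rise between clusters 12 and 6 (Mmp8 is at 15 to 172 CPM in cluster 12 and at 2418 to 2862 CPM in cluster 6).

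Within cluster 12 the primary messages were concentrated in few cells, and the secondary messages were found in nearly all. Of its 160 cells, 17 had an *Mpo* UMI, 24 a *Ctsg* UMI, 30 an *Elane* UMI and 67 a *Prtn3* UMI. The 10 highest cells held 95.9% of the *Mpo* UMIs, 91.4% of those of *Ctsg*, 85.6% of those of *Elane* and 79.2% of those of *Prtn3*. All 160 cells had UMIs of *Camp*, *Ngp* and *Lcn2*, with medians of 802, 519 and 246 UMIs per cell, and 153 had UMIs of *Ltf* (median 86.5). The 4 secondary genes together ran from 50 to 3591 UMIs per cell (median 1712). In the middle-aged day 10 library 4 of the 19 cells had under 100 and the others 1032 or more. At least 5 primary UMIs were found in 30 of 160 cells (4 of 6, 0 of 4, 23 of 131 and 3 of 19 by library), and all 160 had at least 20 secondary UMIs. No cell of cluster 12 thus carried primary messages at that level without the secondary set. The high day 6 values of the primary genes in young adults came mainly from single cells: 1 cell held all 103 *Mpo* UMIs, 1 held 185 of the 201 of *Elane*, 1 held 29 of the 30 of *Ctsg* and 1 held 256 of the 304 of *Prtn3*. In the middle-aged day 10 library 1 cell held 132 of the 146 *Elane* UMIs.

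In the 131 cells of cluster 12 from young adult mice on day 10, the primary genes tended to be found in the same cells. Only 46 of the 131 cells had any primary UMI, so ties at 0 weigh on every rho of a primary gene given here. Spearman's rho of the CPM was 0.83 for *Elane* with *Ctsg*, 0.82 for *Elane* with *Mpo* and 0.75 for *Elane* with *Prtn3*. *Elane* ran opposite to *Ltf* (rho -0.64), *Lcn2* (rho -0.51) and *Ngp* (rho -0.50), but had no such relation to *Camp* (rho -0.06). In the 515 cells of cluster 6 from the same library, *Camp* ran with *Ngp* (rho 0.69) and against *Mmp8* (rho -0.67) and *Mmp9* (rho -0.62), while *Mmp8* ran with *Mmp9* (rho 0.70). These cells share a library and a cluster built from these genes, and each pair of values shares a cell's depth, so the correlations are a description only.

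**Figure D2:**
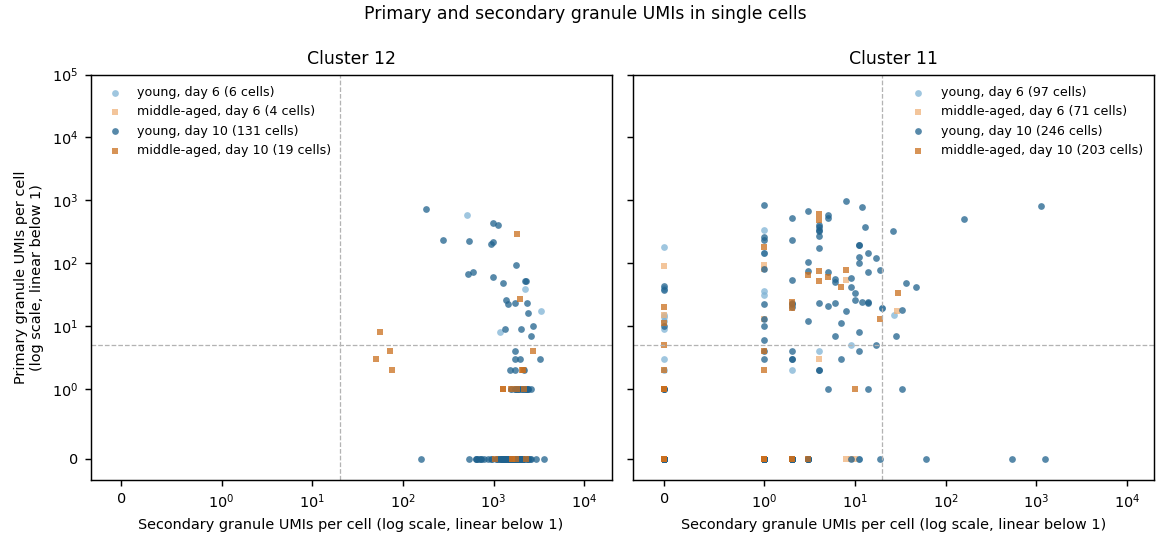
Primary granule UMIs (Mpo, Elane, Prtn3 and Ctsg summed, y axis) against secondary granule UMIs (Ltf, Camp, Ngp and Lcn2 summed, x axis) in each cell of clusters 12 and 11, on log axes that are linear below 1, coloured by library, with dashed lines at 5 primary and 20 secondary UMIs. All cells of cluster 12 lie to the right of the line at 20, with 5 or more primary UMIs in 30 of 160, while 92 of the 104 cells of cluster 11 with 5 or more primary UMIs lie to its left.

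Most primary granule message in the spinal cord lay outside the neutrophil clusters, at 73.8%, 97.2%, 79.4% and 81.2% of the UMIs of the 4 genes by library. Cluster 11 alone held 34.7%, 21.2%, 73.2% and 45.5% of them, so that it held the larger part in the young adult day 10 library and not in the other 3. That cluster had 617 cells (97, 71, 246 and 203). Summed over libraries, of which young adult day 10 gave the most UMIs, it held 92.3% of all *Ctsg* UMIs, 84.6% of those of *Mpo*, 68.9% of those of *Elane* and 43.5% of those of *Prtn3*, while cluster 12 held 5.81%, 12.6%, 29.7% and 13.6% of them. By library the share in cluster 11 ran from 73.9% to 97.1% for *Ctsg*, from 36.6% to 90.6% for *Mpo*, from 42.9% to 74.4% for *Elane* and from 7.48% to 63.6% for *Prtn3*. In the young adult day 6 library *Mpo* was the other way round, with 48.4% of its UMIs in cluster 12 and 36.6% in cluster 11. Its levels were 198, 12.3, 986 and 165 CPM for *Elane* and 108, 181, 651 and 103 CPM for *Ctsg*. *Mpo* was there at 63.1, 72.9, 504 and 111 CPM. The young adult day 10 library was the highest for all 3. Cluster 11 was above the rest of the table in 6 of 6 basophil and mast cell markers, 7 of 8 T cell markers, 8 of 8 markers of dividing cells and 7 of 8 precursor markers, so its cells are mixed and it is left unnamed. Of its 617 cells, 104 had at least 5 primary UMIs, and 92 of those had fewer than 20 secondary UMIs. *Ngp*, the neutrophilic granule protein of the secondary set, was at 0 in cluster 11 on day 6 in both ages, and at 210 and 2.37 CPM on day 10.

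*Prtn3* was the only one of the 4 primary genes with a wide spread outside clusters 12 and 11. Cluster 1, which was above the rest in 7 of 8 monocyte and macrophage markers, held 26.0% of its UMIs, at 34.8, 27.5, 27.4 and 44.3 CPM. *Elane* in that cluster was at 0.573 CPM or less. Cluster 5, above the rest in 5 of 8 such markers, had *Prtn3* at 21.5, 76.2, 46.3 and 41.0 CPM with *Elane* at 2.31 CPM or less. In cluster 2, which was above the rest in 8 of 8 T cell markers, *Prtn3* was at 0.146 to 1.13 CPM, so the levels in clusters 1 and 5 were above that of a cell type that should lack the gene. After each cell was thinned to 2000 UMIs, a *Prtn3* UMI was found in 4.28% to 6.30% of the cells of cluster 1 and 4.04% to 12.5% of those of cluster 5, against 0% to 0.392% in cluster 2. *Prtn3* was thus found with *Elane* in clusters 12 and 11, and with next to no *Elane* in clusters 1 and 5.

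**Figure D3:**
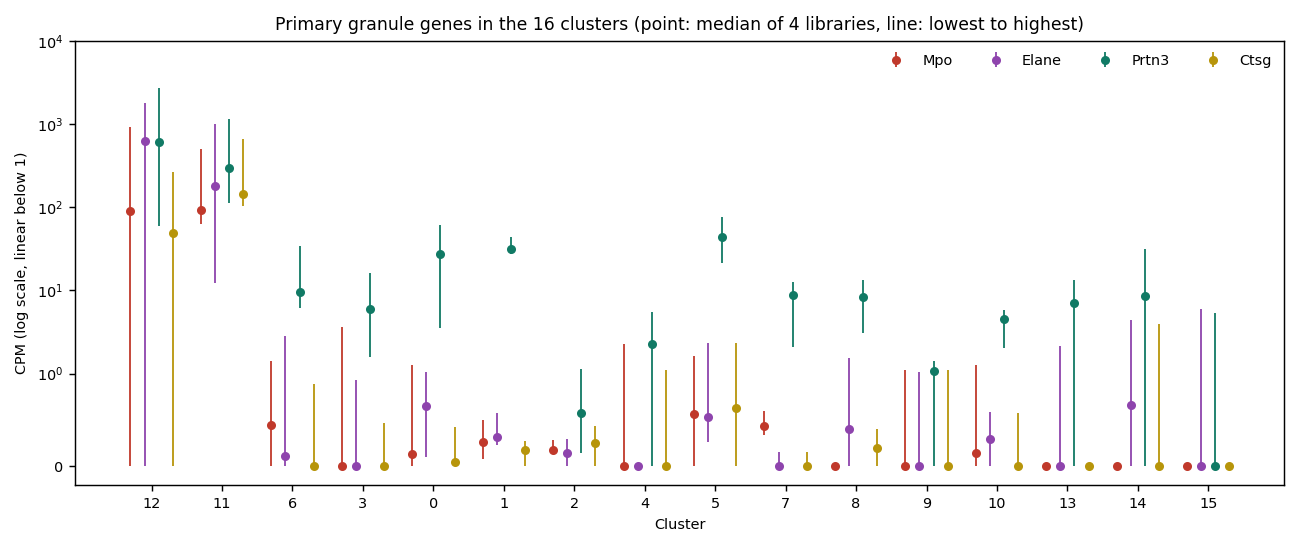
Level of the 4 primary granule genes (CPM, log axis that is linear below 1) in each of the 16 deposited clusters, with a point at the median of the 4 libraries and a line from the lowest to the highest. Mpo, Elane and Ctsg are high in clusters 12 and 11, while Prtn3 is also seen in clusters 1, 5 and 0.

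In the largest neutrophil cluster *Prtn3* was higher on day 10 at both ages. It was at 7.02, 3.5, 47.3 and 60.6 CPM in cluster 0, so that both day 10 libraries lay above both day 6 libraries, while *Elane* was at 0.426, 0.0972, 0.871 and 1.04 CPM in the same cells. Thinned to 2000 UMIs, 1.17%, 0.615%, 7.04% and 9.46% of the cells of cluster 0 had a *Prtn3* UMI. In edgeR's quasi-likelihood fit with day and age as terms, 54.4% of the 9593 genes tested in cluster 0 were called for day (adjusted p below 0.05), and 6 of the 7 granule genes that could be tested were. *Prtn3* rose by 2.73 on the log2 scale (SE 0.27, adjusted p = 1.05e-06). It was called under all 11 alternatives, with values of 2.22 to 3.49, those that left out a library included. For age, *Prtn3* in cluster 0 was not called (log2 fold change 0.00315, SE 0.27).

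The levels of other cell types' markers in cluster 0 moved with day as well. The summed microglial markers were at 80.5, 59.1, 230 and 221 CPM there, the T cell markers at 21.3, 24.7, 59.9 and 69.3 CPM, and the monocyte and macrophage markers at 495, 427, 354 and 340 CPM. Cells with at least 2 UMIs of T cell, B cell or microglial markers made up 9.34%, 5.72%, 20.4% and 19.3% of cluster 0. Their part in the *Prtn3* difference was not tested beyond leaving those cells out, which is among the 11 alternatives.

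Secondary granule messages gave the most UMIs of the 3 sets, which count a transcript once whatever its length, and lay mainly in clusters 12 and 6. The 4 genes made up 9.43%, 10.3%, 10.5% and 10.0% of all UMIs of cluster 12, and 5.31%, 5.87%, 7.83% and 5.14% of those of cluster 6. In cluster 3 the share was 0.247%, 0.247%, 0.994% and 0.509%, and in cluster 0 it was 0.128% to 0.178%. *Camp*, the precursor of the antimicrobial peptide cathelicidin, was at 55132, 39779, 52206 and 47715 CPM in cluster 12 and at 18570, 18147, 25867 and 16046 CPM in cluster 6. *Ngp*, a cystatin-like protein of the granule, was at 25398, 35942, 32066 and 29300 CPM and then at 17412, 19100, 28151 and 17979 CPM. *Ngp* fell from cluster 12 to 6 to 3 to 0 in all 4 libraries, the only granule gene with the same order in each. *Ltf*, the iron-binding lactoferrin, was at 4104 to 7718 CPM in cluster 12 and at 4998 to 7722 CPM in cluster 6, so that the libraries of these clusters overlapped. *Lcn2*, which binds the iron carriers of bacteria, overlapped likewise (9650 to 19227 CPM and 11896 to 16542 CPM).

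*Lcn2* was the highest of the set in clusters 3 and 0. It was at 2412, 2434, 6404 and 5003 CPM in cluster 3 and at 1450, 1213, 1419 and 1552 CPM in cluster 0, where the other 3 were at 177 CPM or less. Thinned to 2000 UMIs, 55.0% to 63.0% of the cells of cluster 0 had an *Lcn2* UMI. *Camp* in cluster 0 was at 5.53, 3.11, 82.1 and 10.6 CPM, and *Ngp* at 7.45, 4.08, 177 and 4.70 CPM. *Ltf* was at 45.6, 61.7, 102 and 58.2 CPM in cluster 0, against 10.9, 14.3, 174 and 1.80 CPM in cluster 3, so that in 3 of the 4 libraries it was higher in cluster 0 than in cluster 3.

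The cells of cluster 6 were not alike across libraries. In the young adult day 10 library the secondary genes took a median of 6.90% of the UMIs of a cell, against 2.14% and 2.45% in the day 6 libraries and 1.79% in the middle-aged day 10 library. A *Ltf* UMI was found in 98.6% of 515 cells there (interval 97.2% to 99.5%), and in 58.3% of 60, 60.5% of 43 and 66.3% of 83 cells of the other libraries, in the same order. For *Camp* the shares were 78.3%, 67.4%, 99.8% and 78.3%. Thinned to 2000 UMIs, *Ltf* was found in 54.4%, 51.2%, 97.1% and 60.2% of the cells, so the difference was also present at equal depth. *Lcn2* was found in all 701 cells. *Mmp8*, a collagenase, and *Mmp9*, gelatinase B, were alike across the libraries of cluster 6, with medians of 19, 20, 25 and 22 UMIs per cell for *Mmp8* and of 12, 16, 15 and 12 for *Mmp9*.

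The tertiary genes rose between clusters 12 and 6. *Mmp8* was at 26.7, 15, 172 and 162 CPM in cluster 12, at 2802, 2418, 2862 and 2646 CPM in cluster 6, at 701, 847, 4489 and 2152 CPM in cluster 3 and at 319, 174, 359 and 217 CPM in cluster 0. *Mmp9* was at 71.2, 226, 165 and 169 CPM, then 1640, 1788, 1775 and 1615 CPM, then 921, 706, 1982 and 1292 CPM, and then 366, 462, 1025 and 1064 CPM. Both were highest in cluster 6 in 3 libraries and in cluster 3 in the young adult day 10 library. In cluster 12 only 43 of 160 cells had an *Mmp8* UMI and 73 had an *Mmp9* UMI. Of the UMIs of *Mmp9*, 41.1% lay in cluster 0, 25.4% in cluster 6 and 14.1% in cluster 3. For *Mmp8* the shares were 11.5%, 31.9% and 22.0%, with 16% more in cluster 1.

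Other genes of the granule pathway were taken from lists of names. *Cebpe*, the factor needed for secondary granules, was at 741 CPM in cluster 12 over all libraries, at 286 CPM in cluster 6, at 33.4 CPM in cluster 3 and at 21.1 CPM in cluster 0. *Spi1*, which encodes PU.1, stayed between 394 and 669 CPM. *Serpinb1a*, an inhibitor of the primary granule proteases, was at 1261, 729, 72.4 and 4.62 CPM in these clusters, and *Ms4a3*, of the promyelocyte stage, at 215, 12.9, 0 and 0.592 CPM. By Pearson's correlation of log2(CPM + 1) over the 64 sums of 16 clusters and 4 libraries, the gene most like the primary set among 3225 genes was *Hist1h2af* (0.87), followed by *Ms4a3* (0.86), *Neil3* (0.84), *Depdc1a* (0.83) and *Hist1h2bn* (0.79). *Abca13* (0.93), *Itgb2l* (0.92), *Cebpe* (0.91), *B230208H11Rik* (0.89) and *Orm1* (0.89) were most like the secondary set. *Retnlg* (0.93), *Pygl* (0.93), *Trem1* (0.92), *Cd300lb* (0.92) and *S100a8* (0.92) were most like the tertiary set. The 64 sums share libraries and clusters, and with Spearman's rho only 1, 0 and 2 of the 5 most like genes of the primary, secondary and tertiary sets were among these.

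Age was compared over both days in each cluster, with day as a term, and few granule genes were called. In cluster 12 none of the 10 was called (0% of the 2758 genes tested were, and 56 of them had an unadjusted p below 0.05 in edgeR). Of the granule genes, 3 (*Mpo*, *Elane* and *Ctsg*) had an unadjusted p below 0.05 there, and all 3 were lower in middle-aged mice. Their fold changes on the log2 scale were -2.09 (SE 0.77), -2.12 (SE 0.83) and -2.35 (SE 0.66). *Ctsg* passed the filter on low counts only through the young adult libraries, so its value supports no statement on age. DESeq2 called none as well. On day 6 *Mpo*, *Elane* and *Ctsg* were at 0 in the 4 middle-aged cells. Against a floor of 3 counts in that library, the log2 ratio was -4.34 or lower for *Mpo*, -5.31 or lower for *Elane* and -2.56 or lower for *Ctsg*. These ratios rest mainly on the single young adult cells given above, and cover counting error only. On day 10, with 131 and 19 cells, the log2 ratio (middle-aged to young adult) was -0.44 for *Elane* (interval -0.69 to -0.19), -1.49 for *Ctsg* (-2.83 to -0.41), -0.53 for *Mpo* (-1.27 to 0.13) and 0.16 for *Prtn3* (-0.07 to 0.39). Most middle-aged UMIs of *Elane*, *Mpo* and *Prtn3* on day 10 were in 1 cell for each gene (132 of 146, 19 of 20 and 136 of 176), which those intervals do not cover. Leaving out a library left 1 library in an age group. Without the middle-aged day 10 library, *Mpo*, *Elane* and *Prtn3* were lower and *Ltf* and *Lcn2* higher in middle-aged mice. The only middle-aged library was then that of day 6, with 4 cells, so the rises of *Ltf* and *Lcn2* rest on those cells. *Mpo*, *Elane* and *Prtn3* then passed the filter on low counts only through the young adult libraries, so these falls support no statement on age. Without the young adult day 10 library *Mpo* was lower as well. Without the filter on low counts, 3 granule genes were called for age in cluster 12 (*Mpo*, *Elane* and *Prtn3*, all lower), of 7 called among 12145 genes.

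Cluster 6 had 7 testable granule genes, and none was called for age (0.0202% of 4954 genes were). Of the 7, 1 (*Prtn3*) had an unadjusted p below 0.05 (log2 fold change 2.05, SE 0.57, edgeR adjusted p = 0.45), and its levels were 6.18, 12.4, 6.42 and 33.8 CPM, from 3 to 29 UMIs a library. DESeq2 called none. In the day 10 pair all 4 secondary genes were lower in middle-aged mice. The log2 ratios (middle-aged to young adult) were -0.69 for *Camp* (interval -0.72 to -0.66), -0.65 for *Ngp*, -0.63 for *Ltf* and -0.42 for *Lcn2*. The median ratio was 0.06 over 3855 genes with 100 or more UMIs. Counting intervals are narrow at such high counts, and how many of all genes differed beyond them was not counted. The day 6 pair did not do the same, since the ratio was -0.03 for *Camp* (-0.08 to 0.01) and above 0 for the other 3. With 1 library for each age and day, the interaction of age and day could not be tested.

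In cluster 3, 0.929% of the 4523 genes tested were called for age, and 1 of the 4 testable granule genes was. *Ngp* was at 43.5, 15.8, 2708 and 81.1 CPM, and was lower in middle-aged mice (log2 fold change -4.03, SE 0.74, edgeR adjusted p = 0.0425). The young adult day 10 library alone was far above the others. Without it the fold change was 0.13 and was not called, and 7 of 11 alternatives ended the call. That library also had *Ngp* UMIs in 341 of its 514 cells of cluster 3, a share of 58.1% after thinning against 5.19%, 3.66% and 8.70% in the other libraries. *Camp* and *Ltf* showed the same library, at 7.25, 4.75, 655 and 3.60 CPM for *Camp* and at 10.9, 14.3, 174 and 1.80 CPM for *Ltf*, but had too few UMIs in the other libraries to be tested. In the T cell cluster 2, a *Ngp* UMI was found in 0.706%, 0.0913%, 4.85% and 0.424% of thinned cells, so the level in cluster 3 was above that background in each library.

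In cluster 0, 3 of 7 testable granule genes were called for age, against 0.208% of the 9593 genes tested, and all 3 were lower in middle-aged mice. The fold change was -2.23 on the log2 scale for *Camp* (SE 0.35, edgeR adjusted p = 0.0220), -3.45 for *Ngp* (SE 0.61, adjusted p = 0.0398) and -0.75 for *Mmp8* (SE 0.13, adjusted p = 0.0303). For *Camp* and *Ngp* the young adult day 10 library was again the high one. Without it the fold change was -0.14 for *Camp* and -1.03 for *Ngp*, and neither was called. In that library 266 cells of cluster 0 had an *Ngp* UMI, and 10 of them held 46.9% of the *Ngp* UMIs. The highest library levels of *Camp* and *Ngp* in cluster 0 (82.1 and 177 CPM) were below those in cluster 1 (213 and 244 CPM). Cluster 1 carried monocyte and macrophage markers, so these levels of cluster 0 did not pass those seen outside neutrophils. Whether the cells of cluster 0 made these messages was not tested. *Mmp8* was different: the young adult level was higher on both days, with log2 ratios of -0.87 (interval -0.97 to -0.77) on day 6 and -0.73 (-0.83 to -0.62) on day 10. Leaving out any library kept its direction, at -0.43 to -1.01, but ended the call each time. DESeq2 called none of the 3, and *Ltf*, *Lcn2*, *Mmp9* and *Prtn3* were not called for age.

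**Figure D4:**
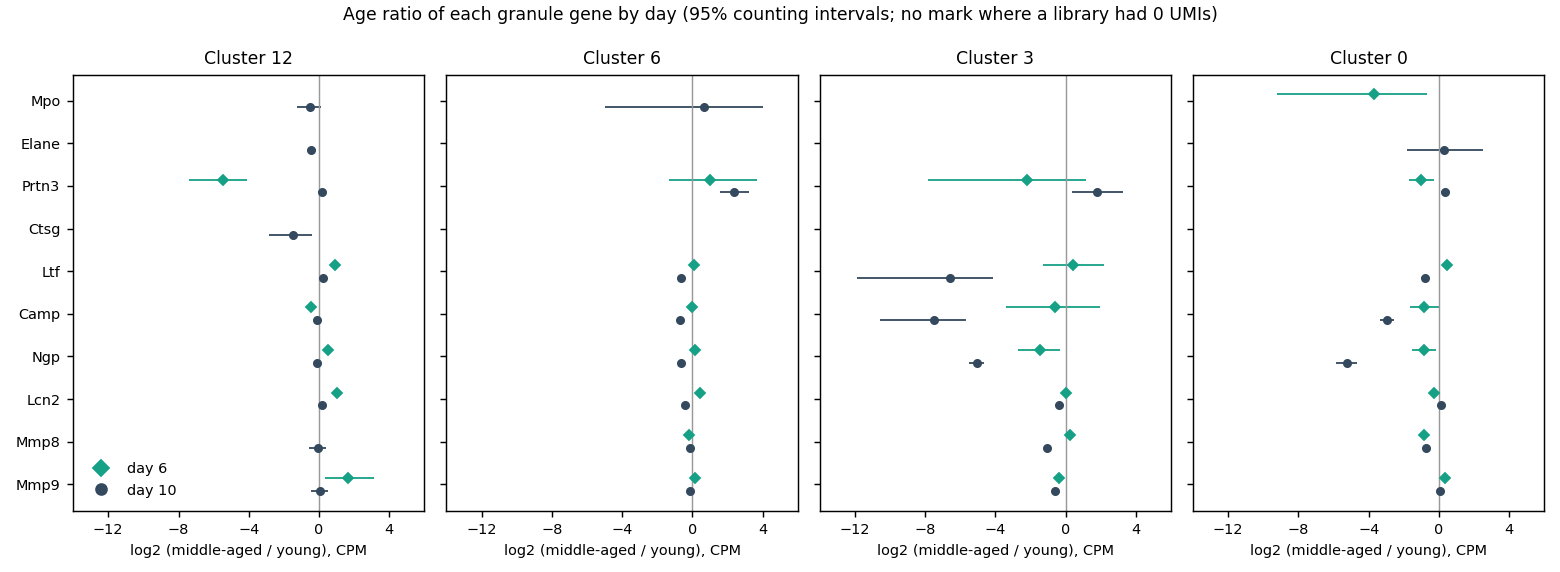
Log2 ratio of the middle-aged to the young adult CPM for each granule gene in clusters 12, 6, 3 and 0, on day 6 and on day 10, with exact 95% conditional binomial intervals that cover counting error only. No ratio is drawn where a library had 0 UMIs or both were at 3 or fewer. On day 10 the secondary genes lie below 0 in clusters 6 and 3, and Mmp8 in cluster 0 lies below 0 on both days.

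Day was compared over both ages in the same fits. In cluster 12, 1.27% of the genes tested were called for day, and 1 of 10 granule genes was. *Mmp8* was higher on day 10 (log2 fold change 2.80, SE 0.62, edgeR adjusted p = 0.0432), from 3 and 1 UMIs on day 6 in 6 and 4 cells against 356 and 44 UMIs on day 10. It passed the filter on low counts only through the day 10 libraries, so the call supports no statement on day. DESeq2 ended it. No granule gene was called for day in cluster 6, where 7.79% of genes were, and 0 of the 7 had an unadjusted p below 0.05 in edgeR (DESeq2 called 0). In cluster 3, where 17.8% of genes were called for day, 3 of 4 granule genes were called, all higher on day 10. Their fold changes were 4.57 for *Ngp* (SE 0.75, adjusted p = 0.00173), 0.98 for *Lcn2* (SE 0.26, adjusted p = 0.0243) and 1.77 for *Mmp8* (SE 0.37, adjusted p = 0.00736). Without the young adult day 10 library these were 1.27 for *Ngp* and 0.82 for *Lcn2*, neither of them called, and *Mmp8* was still called. Without either day 6 library, or with no age term, none of the 3 was called. The summed monocyte and macrophage markers in cluster 3 were at 310, 255, 835 and 395 CPM, and their part in these differences was not tested.

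The remaining day calls in cluster 0 ran in both directions. *Mmp9* rose by 0.59 on the log2 scale (SE 0.13, edgeR adjusted p = 0.00202), was called under all 11 alternatives, and was found in 34.6%, 40.1%, 65% and 68.0% of thinned cells. *Lcn2* fell by 0.59 (SE 0.13, adjusted p = 0.00178) and *Mmp8* by 0.51 (SE 0.12, adjusted p = 0.00315). With total-count scaling, the median gene of cluster 0 moved to 0.84 on the log2 scale from 0.08, and these 2 turned to 0.16 and 0.25. Their falls are thus falls relative to the other genes of the cluster. *Camp* (2.20, SE 0.36, adjusted p = 0.000127) and *Ngp* (2.24, SE 0.60, adjusted p = 0.00590) rose, but rested on the young adult day 10 library. Without it they stood at 0.68 and -0.91. As given above for age, the highest levels of both genes in cluster 0 were below those in cluster 1.

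The same fits covered the other genes of the pathway, in 5 lists of 10 or 12 genes each. For age, *Cd14* and *Wfdc17* were called higher in middle-aged mice in cluster 3 and *Irf8*, which encodes a factor that favours monocytes over granulocytes, lower in cluster 0. No other listed gene was called for age in any cluster or in the other clusters together. For day, 10 of the 10 other tertiary granule and secretory vesicle genes tested fell in cluster 0, among them *Itgam* (the CD11b chain) and *Fpr1* (a formyl peptide receptor), with a median of -1.08 against 0.08 over all genes. *Mmp9* thus moved against the genes listed with it. Of the granulopoietic transcription factors 6 of 9 fell and 2 rose (median -0.64), and of the protease inhibitors 5 of 7 fell (median -0.47). Over all genes of cluster 0, 2613 of 9593 fell and 2605 rose, and with total-count scaling the median gene was at 0.84, so these falls too are relative to the other genes of the cluster. The other primary granule genes went both ways, with 4 of 10 higher and 4 lower, and of the other secondary granule genes 1 of 9 rose and 3 fell. In cluster 3, *Chil3*, *Cd177* and *Lyz2* of the other secondary genes rose with day (3 of 8 tested, none fell, median 1.01 against 0.03 over all genes), as *Ngp* and *Lcn2* did. Over all genes of cluster 3, 205 of 4523 rose and 598 fell.

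In the cells outside clusters 12, 6, 3 and 0, 1 of 10 granule genes was called for age, where 0.0208% of 14422 genes were. *Elane* was lower in middle-aged mice (log2 fold change -2.96, SE 0.16, edgeR adjusted p = 0.0100). Without clusters 11, 13, 14 and 15 the change was -0.58 and not called, and without the young adult day 10 library it was -0.17. For day, 15.9% of the genes were called in these cells, and *Elane* (3.68, SE 0.16, adjusted p = 0.00141) and *Mpo* (2.91, SE 0.54, adjusted p = 0.0190) were called higher on day 10. Without clusters 11, 13, 14 and 15 these fell to 0.40 and -0.14. The calls in the other clusters thus rested on clusters that hold the primary messages or that are mixed, and cluster 11 held most of the UMIs.

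Secondary granule messages were found in every cluster of every library, except cluster 15 of the young adult day 6 library, and their level differed with the library. Outside the 4 neutrophil clusters they were at 314, 237, 1382 and 223 CPM. In the lymphoid clusters 2, 4 and 9, which carried 8 of 8 T cell, B cell or NK cell markers above the rest, they were at 11.5, 11.6, 74.9 and 14.3 CPM. That was 1.08%, 1.23%, 0.771% and 1.06% of the level of the same genes in the whole library, which was 1064, 939, 9712 and 1345 CPM. The young adult day 10 library, with 6.56% of its cells in clusters 12 and 6 against 0.469% to 1.03% in the others, was the highest in 11 of the 12 other clusters. The exception was cluster 9, with 119 CPM there and 132 CPM in the middle-aged day 10 library. In lymphoid cells thinned to 2000 UMIs, 2.41%, 1.78%, 15.3% and 2.43% had a secondary UMI (4.84%, 4.02%, 34.1% and 5.03% before thinning).

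The spill-over, a name used here for secondary UMIs outside the neutrophil clusters whatever their source, had 2 forms. In clusters 2, 4 and 9 it was low, and in the young adult day 10 library it kept much of the make-up of the neutrophil clusters: of 1000 secondary UMIs, 97.9 were of *Ltf*, 300.2 of *Camp*, 308 of *Ngp* and 294 of *Lcn2*, against 76.9, 378, 334 and 211 in clusters 12, 6, 3 and 0. The make-up was not the same in each library. In young adult day 6 lymphoid cells (103 secondary UMIs), 243 of 1000 were of *Camp* and 379 of *Lcn2*, against 340 and 335 in the neutrophil clusters. In middle-aged day 6 lymphoid cells (91 secondary UMIs), 22.0 were of *Camp* (interval 2.67 to 77.1) and 791 of *Lcn2* (693 to 869). Outside the lymphoid clusters much of the spill-over lay in few cells, though not in every cluster and library. Of the secondary UMIs outside the neutrophil clusters, 84.9%, 59.9%, 91.3% and 71.9% lay in the 64, 58, 183 and 61 cells that had 20 or more. Such cells held under 50% of the UMIs in 15 of the 35 sums of a non-lymphoid cluster and a library, among them cluster 1 in both middle-aged libraries (24.8% on day 6 and 27.9% on day 10). Without those cells the level was 48.2, 96.7, 125 and 63.4 CPM. Clusters 13 (1120, 490, 17825 and 6127 CPM) and 14 (993, 598, 30199 and 1235 CPM) had the highest levels on day 10. Both were above the rest in 10 of 10 neutrophil markers and also in 8 of 8 T cell markers (cluster 13) or 8 of 8 B cell markers (cluster 14). Cluster 5, at 1178, 1043, 3189 and 876 CPM, was the highest of the 12 on day 6. No doublet caller was run, and whether these cells are doublets was not tested. Cluster 8 had a make-up of its own, with a median library level of 211 CPM for *Lcn2* (144 to 264 CPM). The medians there were 9.32 CPM for *Ltf*, 3.57 CPM for *Camp* and 9.11 CPM for *Ngp*. Whether the cells of cluster 8 made *Lcn2* was not tested.

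**Figure D5:**
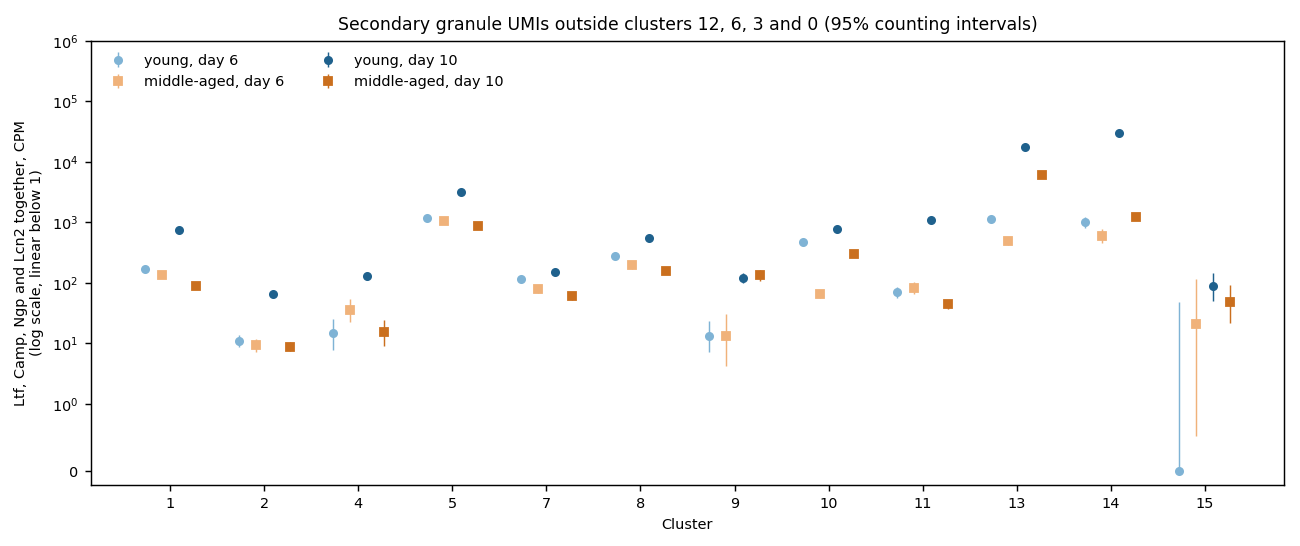
Secondary granule level in CPM (Ltf, Camp, Ngp and Lcn2 summed, log axis that is linear below 1) in each cluster outside 12, 6, 3 and 0, with 1 point for each library and bars for the exact 95% Poisson interval, which covers counting error only. The young adult day 10 library is the highest in 11 of the 12 clusters.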

How the data were processed

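The authors sorted CD45+ cells from a mononuclear preparation of the spinal cord, made 10x libraries, aligned and counted them with Cell Ranger 3.1.0 against mm10 with GENCODE annotation, filtered cells by depth and by mitochondrial and ribosomal share, and clustered the integrated data with Seurat. The deposited single-cell table holds unnormalised UMI counts, and a cell table gives the authors' cluster numbers. The sum of counts matched the cell table in all 38057 cells. The deposited bulk values are raw read counts per gene from naive microglia, 1 library of each age, made by the authors with HISAT2 and unstranded featureCounts. No cell was removed here and no doublet caller was run.

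UMIs were summed per cluster and library and divided by all UMIs of the same cells (CPM). Intervals are exact 95% Poisson, Clopper-Pearson or conditional binomial intervals. Shares of cells were also taken after each cell was thinned to 2000 UMIs, shallower cells being left out. Age and day were fitted together with edgeR 4.0.16 (quasi-likelihood, TMM, genes with 10 or more UMIs in 2 or more of 4 libraries, 1 residual degree of freedom, Benjamini-Hochberg over all genes tested, adjusted p below 0.05). The standard error of a fold change is its size divided by the square root of F. With 1 library for each age and day, that residual is the departure of the 4 libraries from additive effects of age and day, moderated across genes. The p-values and standard errors rest on it and do not measure the spread between replicate libraries or mice. DESeq2 1.42.0, other scalings, filters, cell subsets and models with 1 library left out were alternatives, and total-count scaling and the removal of clusters 11, 13, 14 and 15 were added after the data had been seen. The scripts ran on Python 3.11.15 and R 4.3.3 and were tested on simulated data. Gene positions came from GENCODE on GRCm38 and promoter sequences from RefSeq (GRCm38.p6).

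The 10 genes and all lists were chosen with earlier results of these data known. The text names the 10 genes, the listed genes that were called or have the highest levels, and the 5 genes most like each set, among those with at least 50 CPM in 1 of the clusters. The values of 1 listed gene are not reported here.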

Additional observations from a re-analysis of the deposited data

Results flagged for a closer look

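For 37 pairs of a gene and a cell population, both days gave a log2 ratio of the middle-aged to the young adult level. In 11 of them it had opposite signs on day 6 and day 10 with both counting intervals away from 0. How many of all genes did so by the same rule was not counted, so the 11 are not shown to be particular to granule genes. The difference between the days was not tested, since there was 1 library for each age and day.

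In cluster 6 the ratio on day 10 was -0.63 for *Ltf* (day 6, 0.09), -0.65 for *Ngp* (0.13) and -0.42 for *Lcn2* (0.42), so that 3 of the 4 secondary genes turned the same way there. In cluster 12 it was -0.13 for *Ngp* (0.50 on day 6, from 6 and 4 cells). *Mmp8* in cluster 3 stood at -1.06 on day 10 and 0.27 on day 6.

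In cluster 0 the ratio on day 10 was 0.36 for *Prtn3* (-1.0 on day 6) and 0.13 for *Lcn2* (-0.26), which turned upwards, and -0.81 for *Ltf* (0.44), which turned downwards. In all other clusters together it was -3.03 for *Ctsg* (0.37), -1.66 for *Lcn2* (0.46) and -0.92 for *Mmp8* (0.44).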

How the results depend on the processing

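Of the fitted fold changes of single genes under the alternatives, 721 kept their side of the threshold. Another 66 kept the direction and lost the call, and 39 kept the direction and gained a call. The other 9 changed sign where the main fit or the alternative was called. Sign changes with neither called are counted among the 721. Of the age ratios, 199 moved by less than their counting interval and 44 by more. In 1 other, with an interval away from 0, the sign changed (*Lcn2* in cluster 12 on day 10, to -0.0197 with the mean over cells). Sign changes of ratios with an interval across 0 are counted among the 199 and 44. The cause of these changes was not tested. The 9 fold changes of that kind follow. *Ngp* for age in cluster 3 stood at 0.13 without the young adult day 10 library, and down to -6.24 with another library left out. For day in cluster 12 without the young adult day 6 library, *Mpo* stood at 9.29 and *Prtn3* at 3.06. With another library left out they stood down to -3.27 and -2.18. *Elane* for day in cluster 12 stood at -1.50 without the middle-aged day 6 library, and up to 12 with another left out. Without the young adult day 6 library, *Mpo*, *Elane* and *Prtn3* passed the filter on low counts only through the day 10 libraries. The only day 6 library then had 4 cells in cluster 12, so their rises there support no statement on day. *Ngp* for day in cluster 0 stood at -0.91 without the young adult day 10 library, and up to 4.31 with another left out. With total-count scaling, *Ltf* (0.52), *Lcn2* (0.16) and *Mmp8* (0.25) changed sign for day in cluster 0. *Mpo* for day in the other clusters stood at -0.14 without clusters 11, 13, 14 and 15.

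The number of granule genes called for age was 0 in clusters 12 and 6, 1 in cluster 3, 3 in cluster 0 and 1 in the others. In cluster 12 it was 4 with total-count scaling (13 of 2758 genes called) and 3 with no filter (7 of 12145). In cluster 3 it was 0 with RLE size factors, DESeq2, no day term or cells with 1000 or more UMIs. It was 3 there with no filter (182 of 12271 genes called). In cluster 0 it was 0 with DESeq2 or no day term. In the others it was 6 with total-count scaling, which called 156 of 14422 genes against 3, and 0 without clusters 11, 13, 14 and 15, with no day term, or without cells with 20 or more secondary UMIs. For day the number was 1 in cluster 12, 0 in cluster 6, 3 in cluster 3, 6 in cluster 0 and 2 in the others. In cluster 12 it was 2 with total-count scaling (53 of 2758 genes called). It was 0 there with DESeq2 or without cells with markers of another lineage, where *Mmp8* no longer passed the filter. In cluster 3 it was 1 with RLE size factors (582 of 4523 genes called) or DESeq2 (388 of 4523). It was 5 there with no filter (1016 of 12271) and 0 with no age term. In the others it was 10 with total-count scaling, which called 3703 of 14422 genes against 2286. It was 0 there without clusters 11, 13, 14 and 15 or with no age term. Without cells with 20 or more secondary UMIs it was 4 (2121 of 14372 genes called).

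With each library left out in turn, 1 library was left in an age group and in a day group. Counts of called genes from those fits are therefore not compared. Those fits hold the remaining 3 libraries and a single term, and the lone library of a group is taken to vary like the others. The secondary spill-over of 314, 237, 1382 and 223 CPM became 48.2, 96.7, 125 and 63.4 CPM without cells with 20 or more secondary UMIs, and 711 and 139 CPM on day 10 without clusters 11, 13, 14 and 15. No paired analysis was possible because each age and day had 1 library. The 4 and 6 cells of cluster 12 on day 6 limit every value of that cluster.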

Other observations

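The bulk libraries of microglia from naive mice, outside the single-cell comparisons, also held granule messages. At 1 library of each age there is no test. *Ltf* was at 55.9 CPM in young adult and 64.9 CPM in middle-aged microglia, *Ngp* at 70.3 and 83.9 CPM, *Camp* at 18.2 and 20.6 CPM, and *Lcn2* at 16 and 16.9 CPM. *Mmp9* was at 7.19 and 4.99 CPM. The 4 primary genes and *Mmp8* were at 1.65 CPM or less. *S100a8*, a cytosolic protein of neutrophils, was at 35.3 and 44.3 CPM, and *Tmem119*, a microglial marker, at 3356 and 3430 CPM. In bulk RNA, fewer cells of a type and less RNA per cell cannot be told apart.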
